A study of Mus musculus with 380 samples.

Results

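Interferon-stimulated genes were followed across T cells from B16F10 melanomas, a transplantable mouse skin tumour. The group is a list of 48 genes, of which 47 were found among the 23420 gene symbols of the expression matrix. Rnf213 was not found by its symbol and is not analysed here. A type I list of 8 genes (Ifit1, Ifit2, Ifit3, Isg15, Usp18, Oas1a, Oasl1, Oasl2) was kept apart from a GTPase list of 10 genes (Gbp2 to Gbp7, Irgm1, Irgm2, Igtp, Iigp1), and the other 29 members were grouped by role. The main question was whether both lists mark the same cells.

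The libraries came from 4 Smart-seq2 plates, a protocol that sequences full-length cDNA of sorted single cells. All mice were labelled C57BL/6, and a plate held CD8 or CD4 T cells from a wild-type (WT) mouse or from a mouse labelled knockout (KO) for Il27ra, a chain of the interleukin-27 receptor. There were 94 single cells and 1 population well on each plate. The 80.9% of cells with at least 1000 genes above 1 FPKM were kept (FPKM is a fragment count divided by transcript length and library size), and a gene above 1 FPKM was called detected. Values are listed below in plate order, that is CD8 WT, CD8 KO-labelled, CD4 WT, CD4 KO-labelled, and the kept cells were 72, 80, 79 and 73 in that order. Only 1 mouse code was given per genotype (WT4 or KO4), so genotype, animal and plate cannot be told apart. Each plate held 1 lineage, so lineage and plate cannot be told apart either. No replicate check or test between groups was possible. WT CD4 titles carry the code p2 where the other plates carry p1, and the treatment text names CD8+ cells alone although 2 plates are titled CD4. Cd4 was detected in 4, 0, 71 and 62 cells and Cd8a in 61, 72, 4 and 3 cells in plate order. Il27ra, the targeted gene, was detected in 47, 49, 34 and 35 cells, and the wells held 157.02, 85.3, 243.44 and 72.7 FPKM. Its transcript was thus present under the knockout label, and "KO-labelled" is used throughout.

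Type I interferons signal through a receptor present on most cells and a transcription factor complex that contains STAT2 and IRF9 and binds the interferon-stimulated response element (ISRE). Interferon gamma, made by T and NK cells, signals through another factor that binds the gamma-activated site (GAS), and it induces IRF1, which itself binds ISRE-like sequence. The Ifit, Oas, Isg15 and Usp18 genes belong to the antiviral response to type I interferon. The guanylate-binding proteins (Gbp) and immunity-related GTPases (Irgm1, Irgm2, Igtp, Iigp1) act against intracellular microbes and are strongly induced by interferon gamma, although many genes answer both kinds of interferon.

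Promoter sequence is shown for 8 members to let both elements be seen side by side in type I genes (the first 3), in GTPases and in Irf1. RefSeq promoter windows (GRCm38.p6, from 250 bases before to 50 bases after the start) were present for 36 of the 47 members. The ISRE was searched as GAAANN followed directly by GAAA and, for the other strand, TTTCNN followed directly by TTTC. The GAS was searched as TTCNNNGAA, which reads the same on both strands. Matches may overlap, as they do in Isg15. Capitals mark every ISRE or GAS match in these stretches, written 5′ to 3′ on the gene's strand.
Ifit1, chr19:34640769-34640888 (+): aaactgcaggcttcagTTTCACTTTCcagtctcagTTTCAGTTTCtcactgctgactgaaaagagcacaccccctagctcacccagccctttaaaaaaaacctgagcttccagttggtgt
Ifit3, chr19:34583369-34583528 (+): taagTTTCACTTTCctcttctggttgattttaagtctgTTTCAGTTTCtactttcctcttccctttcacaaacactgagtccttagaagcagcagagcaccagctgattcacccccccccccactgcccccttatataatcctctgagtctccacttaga
Isg15, chr4:156200819-156200938 (-): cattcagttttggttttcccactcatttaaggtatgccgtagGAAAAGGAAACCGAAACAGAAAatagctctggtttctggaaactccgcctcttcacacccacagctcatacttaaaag
Gbp7, chr3:142530216-142530335 (+): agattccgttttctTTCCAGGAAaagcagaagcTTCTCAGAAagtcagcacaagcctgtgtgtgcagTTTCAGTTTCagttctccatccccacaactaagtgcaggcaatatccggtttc
Irgm2, chr11:58214857-58214976 (+): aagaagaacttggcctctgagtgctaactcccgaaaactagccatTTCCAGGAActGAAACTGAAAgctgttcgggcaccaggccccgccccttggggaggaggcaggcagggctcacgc
Igtp, chr11:58199436-58199555 (+): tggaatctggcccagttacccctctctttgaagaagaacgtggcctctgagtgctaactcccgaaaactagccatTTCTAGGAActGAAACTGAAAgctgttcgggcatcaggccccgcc
Tgtp1, chr11:48992247-48992366 (-): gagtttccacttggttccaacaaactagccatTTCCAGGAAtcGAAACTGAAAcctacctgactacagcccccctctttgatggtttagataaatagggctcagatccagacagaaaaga
Irf1, chr11:53769894-53770013 (+): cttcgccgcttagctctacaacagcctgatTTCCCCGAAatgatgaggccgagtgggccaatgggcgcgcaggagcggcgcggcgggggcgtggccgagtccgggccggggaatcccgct

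The ISRE letters occurred in 7 of 7 GTPase and 4 of 7 type I windows, against 3.99% of the 27025 genes with a window. GAS letters occurred in 4 of 7 GTPase and 2 of 7 type I windows, against 9.55% of genes. Both motifs stood together in 4 of 7 GTPase windows and in 1 of 7 type I windows (Oas1a), against 0.540% of genes. In Irgm2, Igtp and Tgtp1 the GAS began 11 bases before the ISRE, a spacing that was noticed in these sequences first and then counted in 5 of all 32851 windows. Irf1, the interferon-induced transcription factor, held a GAS match and no ISRE match in its window. These are letter matches, not measured binding.

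Most GTPase genes lie in clusters of related genes. Gbp2, Gbp3, Gbp5 and Gbp7 sit within 144.03 kb of chromosome 3, Irgm2 and Igtp within 23.2 kb of chromosome 11, and the 3 Ifit genes within 99.3 kb of chromosome 19. Some members share sequence with such relatives, so their FPKM is uncertain. Of their 25-base stretches, Tgtp1 shared 84.6% with Tgtp2, Gbp6 68.7% with Gm43302, Oas1a 72.4% with Oas1g, Ifit3 66.1% with Ifit3b and Igtp 17.6% with Irgm2.

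The plates differed in depth and in admixed cells, and both touch the values below. The median number of genes detected per kept cell was 3168, 2508, 2045 and 2218 in plate order, and 14, 8, 3 and 6 cells held at least 2 markers of another cell type above 10 FPKM. At least 4 of the 7 macrophage markers found in the matrix (of 8 listed) were above 10 FPKM in 4 cells, 1 from the WT CD4 and 3 from the KO-labelled CD4 plate, with summed marker levels of 9844 to 94543 FPKM. In the remaining cells the median sum was 0 on every plate. Of these 4 cells 2 had no Cd3d, Cd3e or Cd3g. The main counts are given with and without them, a choice made after seeing the data. The wells held summed macrophage marker levels of 1962, 892, 66.7 and 3373 FPKM in plate order.

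Type I genes were found in few cells, while GTPase genes were found in many. The median member of the type I list was detected in 6.94%, 11.9%, 11.4% and 18.5% of kept cells in plate order. For the GTPase list the medians were 36.1%, 27.5%, 43.04% and 53.4%, and for all 9081 measured genes they were 30.6%, 21.2%, 16.5% and 17.8%. A gene counts as measured when it was detected in at least 10% of the kept cells of 1 plate, which 44 of the 47 members met. Oasl1, Rsad2 and Ifi44 did not.

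**Figure D1:**
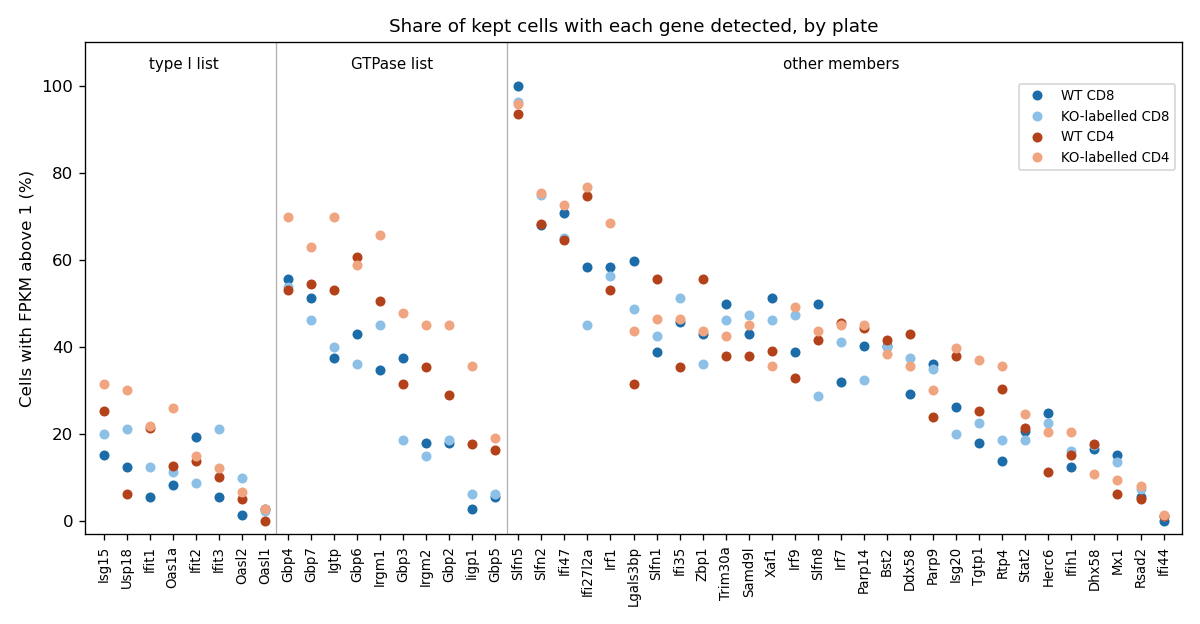
Share of kept cells with FPKM above 1 (y axis, percent) for each of the 47 genes (x axis), with 1 point per plate. Type I genes lie at or below 31.5% on every plate, GTPase genes reach 69.9%, and Slfn5 lies above 93% on every plate.

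Cells that had a type I transcript often had much of it, and so did cells with a GTPase transcript. The list median of the level in cells with detection was 193.062, 259.09, 279.695 and 396.24 FPKM for type I genes in plate order. For GTPases it was lower on every plate, at 92.455, 121.62, 238.535 and 336.602 FPKM. Ifit1, which binds foreign RNA and blocks its translation, was detected in 4 of 72, 10 of 80, 17 of 79 and 16 of 73 cells in plate order. Among those cells its median level was 687, 697, 337.2 and 474 FPKM, above that of its list on every plate. The highest single cell held 2648 FPKM. The median over all kept cells was 0 on every plate, so a minority of cells carried each plate's signal. The median measured gene was also detected in a minority of cells (30.6%, 21.2%, 16.5% and 17.8% in plate order). Levels of all measured genes in cells with detection were not computed. Isg15, a ubiquitin-like protein attached to other proteins, was detected in 15.3% of cells (95% Clopper-Pearson interval 7.88 to 25.7), 20% (11.9 to 30.4), 25.3% (16.2 to 36.4) and 31.5% (21.1 to 43.4). Usp18, which removes ISG15 and dampens the type I receptor, was detected in 12.5%, 21.2%, 6.33% and 30.1% of cells. For both genes the KO-labelled plate lay above the WT plate of its lineage. The intervals overlapped for Isg15 in both lineages and for Usp18 in CD8 cells. The intervals cover counting error between cells only.

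The remaining type I genes were rarer. Ifit3, a partner of IFIT1, was detected in 4, 17, 8 and 9 cells in plate order, and 1 KO-labelled CD4 cell held 11240 FPKM. Ifit2, of the same family, was detected in 14, 7, 11 and 11 cells. Oas1a, an oligoadenylate synthetase that activates RNase L, was detected in 6, 9, 10 and 19 cells, and its relative Oasl2 in 1, 8, 4 and 5. Oasl1 was detected in 2, 2, 0 and 2 cells, and the 0 of 79 WT CD4 cells allows a share of up to 3.80% (3 cells) with the transcript above 1 FPKM. This limits cells with detection, not cells that express the gene, and the WT CD4 well held 22.7 FPKM. No plate was highest for all 8 genes: Ifit2 was most frequent in WT CD8, Ifit3 and Oasl2 in KO-labelled CD8, and Isg15, Usp18 and Oas1a in KO-labelled CD4 cells.

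Among the GTPases, Igtp, an immunity-related GTPase that guards host membranes, was detected in 27 of 72, 32 of 80, 42 of 79 and 51 of 73 cells in plate order. Its wells held 212.36, 238.48, 997 and 1925 FPKM. Both CD4 plates lay above both CD8 plates in share and in well level. Iigp1, an effector GTPase that coats parasite vacuoles, was detected in 2, 5, 14 and 26 cells, with 17.5, 46.04, 257.21 and 403 FPKM in the wells. Irgm1, a regulator of the other immunity-related GTPases, was detected in 34.7%, 45%, 50.6% and 65.8% of cells and held 178.88, 227.11, 368.63 and 628 FPKM in the wells. Irgm2, a further regulator, was detected in 18.1%, 15%, 35.4% and 45.2% of cells. All 4 immunity-related GTPases thus had the order of both CD4 plates above both CD8 plates.

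The guanylate-binding proteins were less uniform. Gbp4, Gbp6 and Gbp7 were the most widespread, in 53.2% to 69.9%, 36.2% to 60.8% and 46.2% to 63.01% of cells across plates. Gbp3 was detected in 37.5%, 18.8%, 31.6% and 47.9% of cells in plate order, so WT CD8 cells exceeded WT CD4 cells in share, although the wells held 95.3, 53.1, 258.25 and 334.14 FPKM. Gbp2, recruited to pathogen vacuoles, held 221.66, 282.42, 187.6 and 897 FPKM in the wells. Gbp5, known from inflammasome assembly, was the rarest, in 5.56% to 19.2% of cells.

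The 6 members detected in the largest mean share of cells were Slfn5 (96.5%), Slfn2 (71.7%), Ifi47 (68.2%), Ifi27l2a (63.7%), Irf1 (59.1%) and Gbp4 (58.1%). Slfn5, a Schlafen family protein, was detected nearly everywhere but at a low level: its mean share was 23.2% above 10 FPKM and its wells held 24.6 to 42.8 FPKM. Ifi47, an immunity-related GTPase outside the list, kept 67.6% at that threshold. The 6 members detected least were Gbp5 (11.9%), Mx1 (11.2%), Rsad2 (6.58%), Oasl2 (5.83%), Oasl1 (2.00%) and Ifi44 (0.971%). Rsad2 (viperin) and Mx1, antiviral effectors, were thus within the range of the type I list.

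The other members stood between those ends. Among transcription factors, Irf1 held 424, 566, 1076 and 2516 FPKM in the wells in plate order, Irf7, which amplifies the type I response, 130.95, 323.38, 156.12 and 367.48 FPKM, and Irf9 139.35, 189.45, 250.25 and 218.28 FPKM. Stat2 was detected in 18.8% to 24.7% of cells. Of the nucleic acid sensors, Zbp1 was detected in 36.2% to 55.7% of cells, Ddx58 (RIG-I) in 29.2% to 43.04%, Ifih1 (MDA5) in 12.5% to 20.5% and Dhx58 (LGP2) in 10.96% to 17.7%. Well levels of Irf1 were highest in the CD4 plates, while those of Irf7 were highest in the KO-labelled plates.

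Of the effectors, Bst2 (tetherin, which holds virions at the cell surface) was detected in 38.4% to 41.8% of cells, Trim30a in 37.97% to 50%, Samd9l in 37.97% to 47.5%, Xaf1 in 35.6% to 51.4%, Parp14 in 32.5% to 45.2%, Parp9 in 24.1% to 36.1%, Isg20 in 20% to 39.7%, Rtp4 in 13.9% to 35.6% and Herc6 in 11.4% to 25%. Ifi35 was detected in 35.4% to 51.2%, Lgals3bp in 31.6% to 59.7%, Slfn1 in 38.9% to 55.7%, Slfn8 in 28.8% to 50% and Tgtp1 in 18.1% to 36.99% of cells. Rtp4 was lowest in WT CD8 and highest in KO-labelled CD4 cells in share (13.9%, 18.8%, 30.4%, 35.6% in plate order) and in well level (58.6, 109.72, 175.03, 264.23 FPKM). Xaf1 ran the other way in share (51.4%, 46.2%, 39.2%, 35.6%) but not in well level (34.7, 50.7, 65.99, 88.9 FPKM).

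Cells of the CD4 plates held more GTPase transcript than cells of the CD8 plates under both genotype labels. For each gene the mean of log2(FPKM + 1) over kept cells was subtracted between plates, and differences of at least 1 were counted. All 10 GTPase genes were higher in CD4 cells in both comparisons, where 15.9% (WT) and 37.3% (KO-labelled) of the 9081 measured genes were, with median differences of 0.99 and 2.03. At least 1 higher were 5 of 10 GTPases in WT, where 1.65% of measured genes reached that size, and 9 of 10 in KO-labelled cells, where 2.85% did. The median of all measured genes was -0.53 in WT and -0.12 in KO-labelled cells. The 2 comparisons share no plate with each other.

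Igtp differed by 1.98 in WT and 3.24 in KO-labelled cells, and by 2.23 and 3.01 between wells. Iigp1 differed by 1.44 and 2.52, Gbp6 by 1.74 and 2.32, Irgm1 by 1.49 and 1.57, and Irgm2 by 1.20 and 1.99. These 5 passed 1 under both labels. Gbp2 (2.49), Gbp3 (2.06), Gbp7 (1.78) and Gbp4 (1.41) passed 1 in the KO-labelled comparison and had 0.79, 0.18, 0.56 and 0.59 in WT, and the difference between the comparisons was not tested.

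The type I list differed less, and its direction in WT depended on the kind of library. Its medians were 0.31 in WT and 0.72 in KO-labelled cells over the 7 measured genes, and -0.10 and 1.21 between wells. Ifit1 passed 1 in WT (1.34; wells 2.85) and Oas1a in KO-labelled cells (1.16). Without cells holding markers of another cell type the medians were 0.02 and 0.14. The part of other cell types in the difference was not tested.

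Outside both lists, Ifi27l2a, a small interferon-induced protein of mitochondrial membranes, was higher in CD4 cells by 1.90 in WT and 3.80 in KO-labelled cells, Rtp4, a receptor transporter protein, by 1.49 and 1.38, and the exonuclease gene Isg20 by 1.24 and 1.84. Slfn1 (1.56), Zbp1 (1.39) and Ddx58 (1.15) passed in WT, whereas Irf1 (1.97), Tgtp1 (1.39) and Ifi47 (1.11) passed in KO-labelled cells. Lgals3bp, a secreted galectin-binding glycoprotein, was the one member at least 1 lower in CD4 cells, at -1.66 in WT, where 27% of measured genes were that much lower. In KO-labelled cells no measured member was, against 6.54% of genes. In all, 12 of 44 measured members were at least 1 higher in WT and 16 of 44 in KO-labelled cells (14 without the macrophage-marked cells).

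The GTPase difference between lineages was at least as large in cells of like depth, and smaller without Foxp3 cells. In cells matched within 10% on genes detected, the list's median was 2.01 in WT (32 cells each) and 2.49 in KO-labelled cells (61 each). Between the wells it was 1.39 and 1.95, with 9 and 10 of 10 genes higher, where 52.4% and 49.6% of measured genes were. At least 1 higher between wells were 7 and 9 of the 10, against 13.4% and 11.7% of genes. A well pools cells, so fewer cells of a type and less RNA per cell cannot be told apart there. When CD4 cells with Foxp3 detected were left out, an alternative chosen after seeing the data, the medians over cells were 0.56 in WT and 0.70 in KO-labelled cells.

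**Figure D2:**
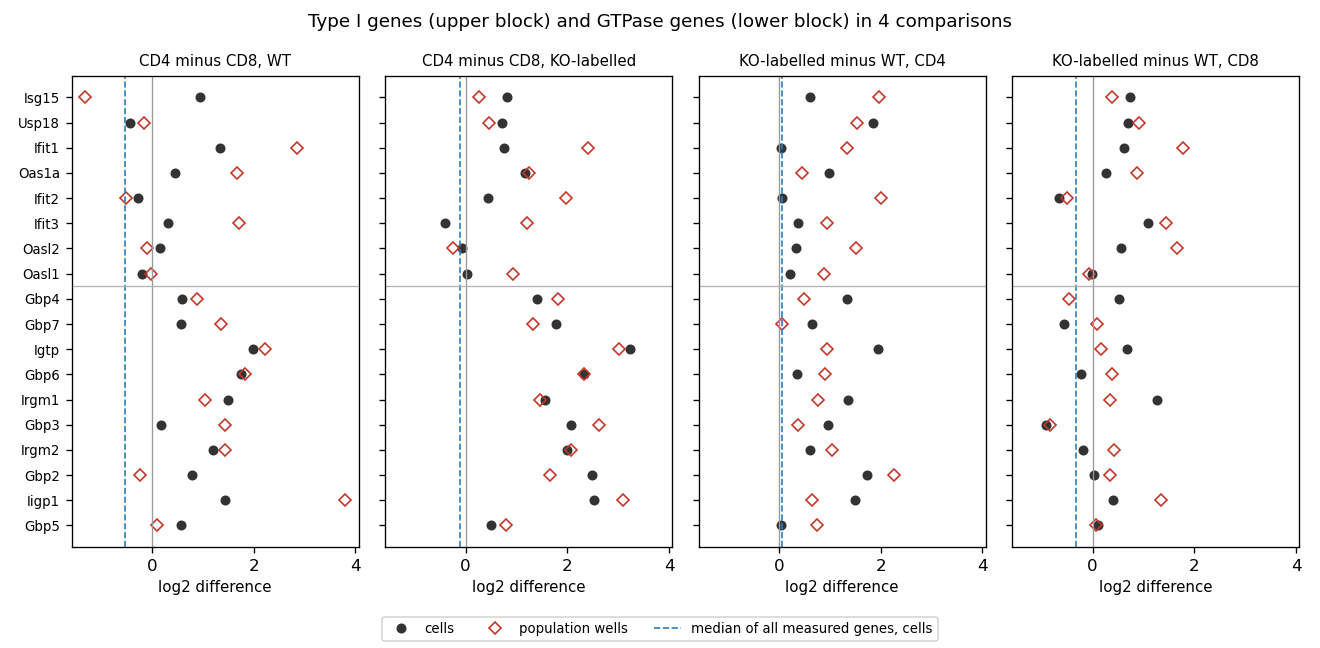
Log2 difference (x axis) of each type I and GTPase gene (y axis) in 4 comparisons between plates, from the mean over cells (filled) and from 1 population well per plate (open); the dashed line is the median of all measured genes in cells. Every GTPase point from cells lies above 0 in both CD4 minus CD8 panels.

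Between the CD4 plates, KO-labelled cells had the higher GTPase means, and this depended on which cells were compared. All 10 GTPases were higher in the KO-labelled CD4 plate, against 58.8% of measured genes, and the list's median difference was 1.15. At least 1 higher were 5 of 10 (Igtp 1.94, Gbp2 1.72, Iigp1 1.49, Irgm1 1.35, Gbp4 1.34), where 4.56% of measured genes were. In cells matched on genes detected the median was 0.63, and in cells with at least 2000 genes it was 0.000299. Cells with Foxp3 detected numbered 27 of 79 on the WT plate against 42 of 73 on the KO-labelled plate, and without them the median was 0.55.

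Usp18 was the type I gene that passed 1 between the CD4 plates, at 1.84, and at 1.41 in matched cells. It was detected in 5 of 79 cells against 22 of 73, and its wells held 55.9 and 162.6 FPKM. The type I median was 0.37 (0.10 in matched cells, and 0.89 without Foxp3-detected cells). Other members at least 1 higher were Irf9, a subunit of the ISRE-binding complex (1.42), Irf1 (1.42) and Tgtp1 (1.26). Irf9 went the other way between wells (-0.20). In all 9 of 44 measured members were at least 1 higher and none was at least 1 lower, where 0.782% of genes were. These counts also depended on the cells compared. In matched cells 8 of the 47 found members were at least 1 higher and 2 at least 1 lower (Zbp1 -1.80, Bst2 -1.08), and in cells with at least 2000 genes 5 were higher and 3 lower. The shares of all measured genes were not counted in these 2 sets of cells.

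In the wells of the CD4 plates all 8 type I genes were higher under the KO label, where 47.6% of all measured genes were. Ifit2 held 34.4 FPKM in the WT and 140.57 FPKM in the KO-labelled well, and Isg15 20.1 and 81.6 FPKM. The type I median between wells was 1.51 over the 7 measured genes, 5 of which were at least 1 higher, against 12.1% of all genes. The KO-labelled CD4 well also held the highest macrophage marker level and the WT CD4 well the lowest, and their part in the difference was not tested. In cells, without the 4 macrophage-marked ones, 6 of 8 type I genes were higher, and the share of all measured genes was not counted there. Over all 8 genes their median was then 0.31, against 0.36 with all kept cells. Over the 7 measured genes it was 0.40, against 0.37 with all kept cells.

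Between the CD8 plates, type I genes were somewhat higher under the KO label, while GTPases were near 0. The type I median was 0.62, with 6 of 7 measured genes higher, against 24.3% of all measured genes and an all-gene median of -0.34. Ifit3 was the type I gene that passed 1 (1.08), where 2.25% of genes did, and its wells held 72.1 and 198.72 FPKM. Ifit1 differed by 0.62 in cells and by 1.78 in wells (19.2 and 68.3 FPKM). Ifit2 went the other way, at -0.67 in cells and -0.49 in wells.

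The GTPase median between the CD8 plates was 0.06, with 6 of 10 higher, and Irgm1 was the one that passed 1 (1.28). Slfn2, of the Schlafen family, also passed (1.09). Ifi27l2a was lower in KO-labelled cells (-1.35), where 14.3% of genes were at least 1 lower, but its wells held 1135 FPKM in WT and 1831 FPKM under the KO label. In 45 cells per plate with matched numbers of detected genes, Ifit3 had 0.31, Irgm1 0.42 and Slfn2 0.20, while Ifi27l2a had -1.57 and the type I median was 0.26. In all, 3 of 44 measured members were at least 1 higher and 1 at least 1 lower before matching. After matching, 1 of the 47 found members was at least 1 higher (Irf9, 1.33) and 3 were at least 1 lower (Ifi27l2a, Ifi47 at -1.01 and Slfn8 at -1.01). The shares of all measured genes were not counted after matching.

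Whether both lists mark the same cells was asked within each plate. Most type I-positive cells were also GTPase-positive. On 1 of the 4 plates, KO-labelled CD8, their share lay apart from that of the remaining cells by its interval. A cell was called type I-positive with at least 4 of the 8 genes detected and GTPase-positive with at least 5 of the 10. Over all kept cells 26 (8.55%) were type I-positive and 35.2% GTPase-positive. Both calls were made in 23 cells, type I alone in 3, GTPase alone in 84 and neither in 63.8% of cells. Since so few cells were type I-positive, the totals alone fix that most GTPase-positive cells were not. Without the 4 macrophage-marked cells, 23 of 300 were type I-positive and 20 of these GTPase-positive. On the WT CD4 plate these were 3 of 78 and 3 of 3, with 34.7% of the rest GTPase-positive, and on the KO-labelled CD4 plate 9 of 70 and 7 of 9, with 52.5% of the rest.

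By plate, type I-positive cells were 2 of 72 (2.78%, interval 0.338 to 9.68), 9 of 80 (11.2%, 5.28 to 20.3), 4 of 79 (5.06%, 1.40 to 12.5) and 11 of 73 (15.1%, 7.77 to 25.4) in plate order, and GTPase-positive cells were 18, 18, 30 and 41. Of the type I-positive cells 2 of 2, 8 of 9, 4 of 4 and 9 of 11 were GTPase-positive. Among the remaining cells 22.9%, 14.1%, 34.7% and 51.6% were GTPase-positive. In KO-labelled CD8 cells the shares were far apart (88.9%, interval 51.8 to 99.7, against 14.1%, interval 6.97 to 24.4), and these intervals did not overlap. In KO-labelled CD4 cells they did (81.8%, 48.2 to 97.7, against 51.6%, 38.6 to 64.5). The few type I-positive WT cells gave wide intervals that also overlapped, 15.8 to 100 against 13.7 to 34.4 in CD8 and 39.8 to 100 against 24.04 to 46.5 in CD4 cells.

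Depth and admixed cells moved with these calls to a different extent on each plate. Markers of another cell type were present in 0 of 2, 0 of 9, 1 of 4 and 4 of 11 type I-positive cells in plate order. The median number of genes detected was 2616 in type I-positive and 2446 in the remaining KO-labelled CD8 cells, and 3174.5 against 1983 in WT CD4 cells. All 4 type I-positive WT CD4 cells were in the deeper 39 of the 79 cells, and 60% of the remaining 35 deeper cells were GTPase-positive. In KO-labelled CD8 cells the calls went together in the deeper cells (6 of 6, against 20.6% of the rest) and in the shallower ones (2 of 3, against 8.11%).

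When 2 type I and 3 GTPase genes sufficed, the shares moved closer, to 83.3% against 55% of the rest, 78.6% against 40.9%, 80% against 61.02% and 100% against 74.5% in plate order. Within depth groups some shares were then level, at 85.7% against 86.2% in the deeper WT CD8 and 40% against 45.7% in the shallower WT CD4 cells. Of the 72 cells left out for few genes, 0 were type I-positive and 0 GTPase-positive, which allows up to 4.17% (3 cells) with either call. Their median was 259.5 genes detected, so this limits calls at that depth and not expression.

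The score of a list is the mean of log2(FPKM + 1) over its genes. In KO-labelled CD8 cells the GTPase score had a median of 3.84 (3.32 to 7.74) in the 9 type I-positive cells and of 1.42 (0 to 7.24) in the other 71, so the ranges overlapped. Cells with a type I score of 0 numbered 42, 40, 38 and 31 in plate order, and their highest GTPase scores were 4.65, 3.92, 6.61 and 7.41. In the CD4 plates some cells without any type I transcript thus reached high GTPase scores.

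The partial Spearman rho between both scores, given the number of non-member genes detected, was 0.36, 0.47, 0.33 and 0.27 in plate order (n = 72, 80, 79 and 73 cells). Cells of a plate share an animal code and a plate, so these are descriptions. For comparison, the type I score had 0.11, -0.02, 0.04 and -0.06 with a score of 14 respiratory chain genes, and the GTPase score had 0.19, 0.14, -0.09 and -0.02. With a score of cell cycle genes the type I score had -0.30, 0.09, -0.14 and -0.31, sizes near those of both lists with each other in WT CD8 and KO-labelled CD4 cells, and the GTPase score had -0.02, 0.12, -0.18 and -0.18. Without the macrophage-marked cells the values of both CD4 plates were 0.32 and 0.25, and in WT CD4 cells with at least 2000 genes rho was 0.61.

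**Figure D3:**
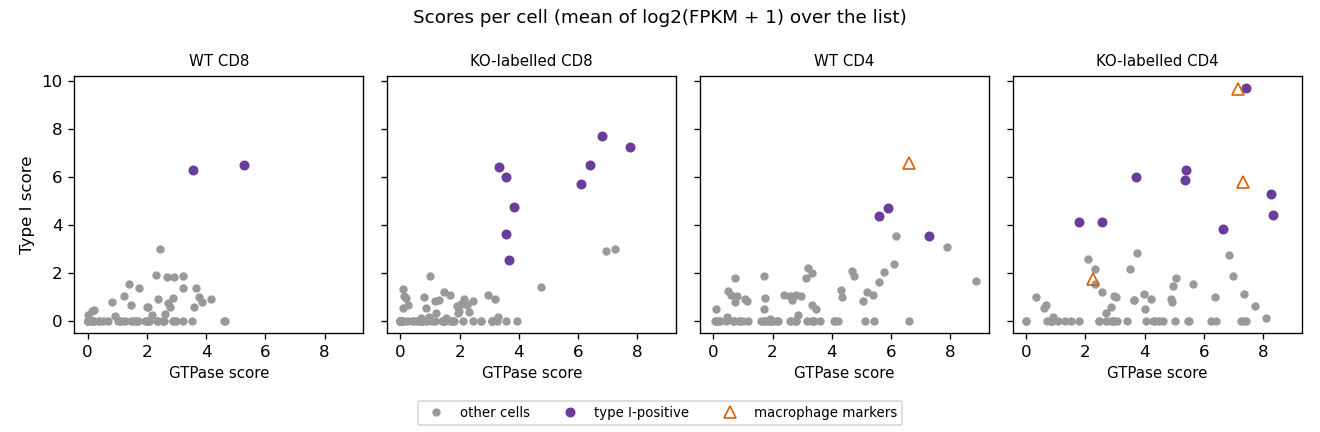
Type I score (y axis) against GTPase score (x axis), each the mean of log2(FPKM + 1) over the list, with 1 point per kept cell and 1 panel per plate. Filled dark points are type I-positive cells and triangles are the 4 cells with macrophage markers; the cells at the lower right of the CD4 panels have GTPase transcripts and few or no type I transcripts.

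Gene pairs varied together more within a list than between lists on the 3 plates with type I pairs. Over genes detected in at least 20% of a plate's cells, the median partial rho of type I pairs was 0.50 in KO-labelled CD8 (3 pairs), 0.32 in WT CD4 (1 pair) and 0.44 in KO-labelled CD4 cells (6 pairs). GTPase pairs had 0.10, 0.37, 0.21 and 0.33 in plate order. Pairs of 1 gene from each list had 0.34 in KO-labelled CD8, 0.17 in WT CD4 and 0.11 in KO-labelled CD4 cells. All pairs of members had 0.14, 0.21, 0.13 and 0.16, so GTPase pairs lay below all member pairs in WT CD8 cells. All pairs of non-members in the same detection range had medians of 0.001 to 0.015. Some genes of a list share sequence with each other, and the part of this in the values was not tested.

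In the 26 type I-positive cells, many other members were detected in a larger share than in the rest, to unequal degrees. Slfn1 was detected in 26 of 26, against 41.01% of the 278 remaining cells, and Rtp4 in 24 against 18.3%. Ifih1 was detected in 20 against 10.4%, Rsad2 in 13 against 2.52%, Mx1 in 15 against 6.83% and Irf7 in 22 against 37.1%. Of GTPases, Igtp was detected in 25 against 45.7% and Irgm1 in 24 against 44.96%. Irf1 (20 against 57.2%) and Irf9 (16 against 40.3%) differed less. Non-members differed too, such as Cd69 (22 against 57.2%) and, the other way, Havcr2 (3 against 29.5%). Without the macrophage-marked cells Rtp4 was detected in 21 of 23, Ifih1 in 17, Rsad2 in 11 and Mx1 in 13. These shares pool 4 plates of unequal weight, with 2, 9, 4 and 11 type I-positive cells in plate order. The median numbers of genes detected in these cells were 2628.5, 2616, 3174.5 and 2471. In the remaining cells they were 3220.5, 2446, 1983 and 2141.5. The shares over all measured genes were not counted, and the part of depth was not tested.

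Each member was then placed by its mean partial rho over plates with both scores, leaving the gene itself out of its own score. Rtp4 lay closest to the type I score (0.51, against 0.38 with the GTPase score). Rsad2 (0.36 and 0.23) and Isg15 (0.39 and 0.24) were also nearer the type I score, on all 4 plates. Tgtp1 (0.15 and 0.37) was nearer the GTPase score on all 4 plates, and Irf1 (0.18 and 0.37) and Ifi47 (0.31 and 0.45) on 3 of 4. Zbp1 (0.35 and 0.44) was nearer it in the mean but on 2 of 4 plates. Irf7 was about equally close to both (0.36 and 0.34). Slfn5 had 0.12 and -0.04. Tgtp1 and Ifi47 are immunity-related GTPases outside the list. Without the macrophage-marked cells Rtp4 had 0.50 and 0.37 and Irf1 0.17 and 0.37.

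**Figure D4:**
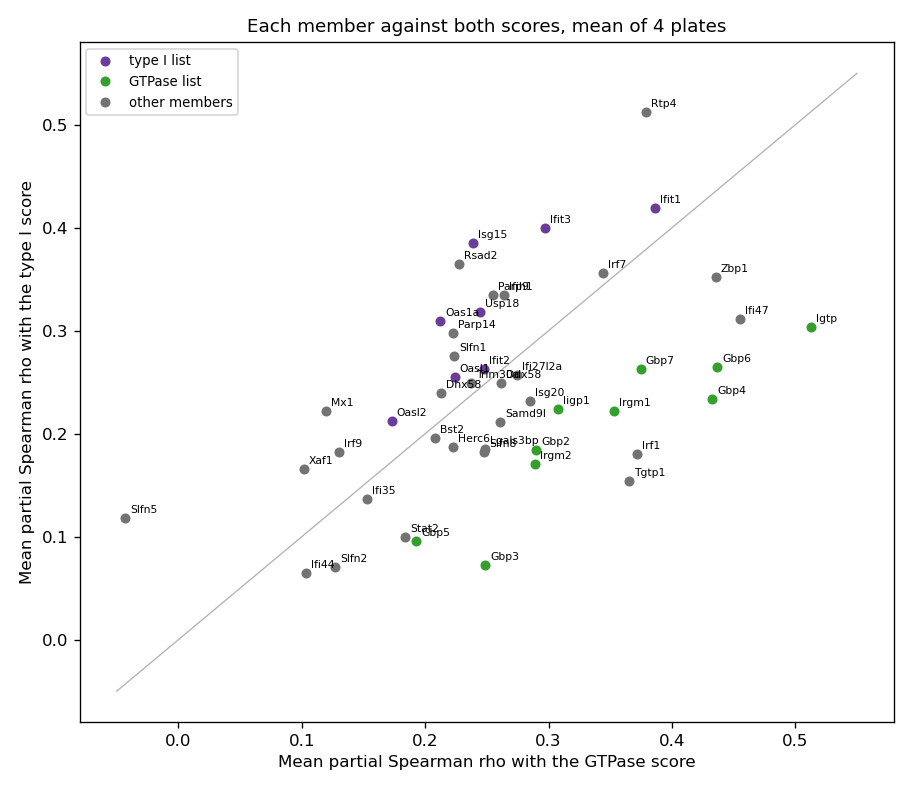
Mean over 4 plates of the partial Spearman rho of each member with the GTPase score (x axis) and with the type I score (y axis); the line marks equal values. Rtp4, Rsad2 and the Ifit genes lie above the line, and Irf1, Tgtp1, Ifi47 and the GTPases lie below it.

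Among 3316 non-member genes detected in at least 20% of cells of every plate, those with the highest mean partial rho with the type I score included Phf11a (0.36), Tgtp2 (0.32), Pydc4, Gbp9, Pydc3, BC094916, Sp100, Pyhin1 and Gm5595 (0.27). With the GTPase score they included Tgtp2 (0.54), B2m (0.46), AW112010, Tap1, H2-D1, Samhd1, Gbp9, Tapbp and Gvin1 (0.35). The medians over all 3316 genes were 0.005 and 0.018. B2m, Tap1, H2-D1 and Tapbp, which encode parts of MHC class I or its peptide loading, had lower values with the type I score (0.22, 0.24, 0.16 and 0.21), where the 99th percentile of all 3316 genes was 0.19. Tgtp2 shares most of its sequence with the member Tgtp1.

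In the CD4 plates more cells were GTPase-positive with Foxp3 detected than without. Foxp3 encodes the transcription factor that defines regulatory T cells. Among CD8 cells it was found in 0 of 72 (WT) and 1 of 80 (KO-labelled). GTPase-positive cells made up 21 of 27 WT CD4 cells with Foxp3 detected (77.8%, interval 57.7 to 91.4) and 9 of 52 without (17.3%, 8.23 to 30.3). In KO-labelled cells they were 29 of 42 (69.05%, 52.9 to 82.4) and 12 of 31 (38.7%, 21.9 to 57.8). Type I-positive cells were 2 of 27 and 2 of 52 in WT, and 4 of 42 and 7 of 31 in KO-labelled cells. Type I score medians with and without Foxp3 were 1.03 and 0 in WT, and 0.58 and 0.60 in KO-labelled cells. The partial rho of Foxp3 with the GTPase score was 0.35 and 0.40, and with the type I score 0.02 and -0.03. Without the macrophage-marked cells these were 0.38 and 0.43, and 0.05 and 0.02, and the type I-positive cells without Foxp3 were 1 of 51 and 5 of 28.

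GTPase scores ranged from 0.20 to 8.87 (median 4.35) in WT cells with Foxp3 and from 0.06 to 6.59 (median 1.91) in those without, so the groups overlapped. By gene, 9 of 10 GTPases in WT and 8 of 10 in KO-labelled cells were at least 1 higher with Foxp3, against 24.6% and 5.99% of measured genes. WT cells with Foxp3 also had more genes detected (median 2404 against 1891), while the KO-labelled cells were closer (2268 against 2123), and the part of depth was not tested by gene. Igtp differed by 4.19 and 2.39, Gbp3 by 3.28 and 2.78, Iigp1 by 2.00 and 3.15, and Gbp7 by 3.13 and 1.90. Gbp2 was under 1 in both plates, at 0.66 and -0.08, and Irgm1 had 1.89 in WT and 0.26 in KO-labelled cells. Type I genes had medians of 0.40 in WT, where the median of all measured genes was 0.41, and of -0.44 in KO-labelled cells, where it was -0.03.

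**Figure D5:**
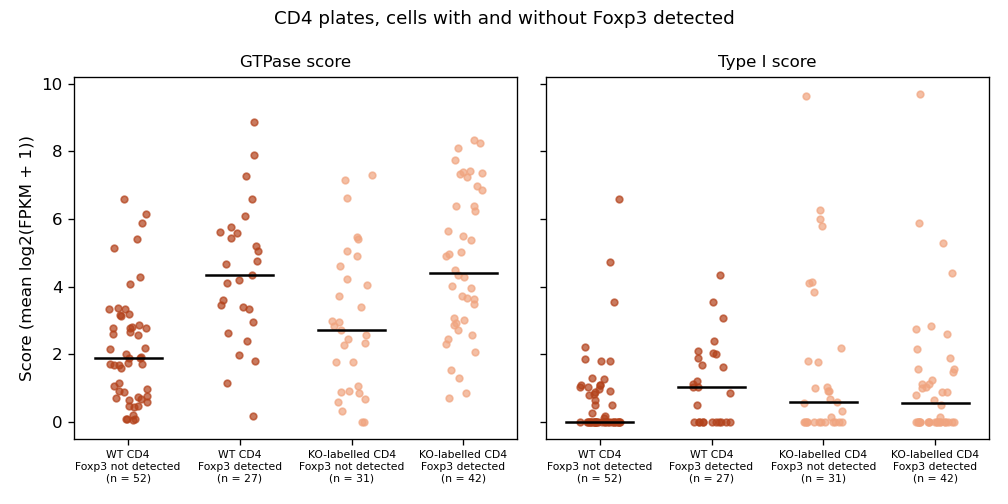
GTPase score (left) and type I score (right), on the y axis as mean log2(FPKM + 1), in CD4 cells without and with Foxp3 detected, with 1 point per cell and a line at the median. The GTPase medians are 1.91 and 4.35 in WT and 2.71 and 4.42 in KO-labelled cells, and the type I medians 0 and 1.03 in WT and 0.60 and 0.58 in KO-labelled cells.

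State genes beside Foxp3 were followed in the same way. Gzmb, a cytotoxic granule protease, had a partial rho with the GTPase score of 0.24, 0.19, 0.32 and 0.37 in plate order, and with the type I score of 0.19, -0.07, 0.09 and 0.04. Tcf7, a factor of naive and memory T cells, had -0.35 with the GTPase score in WT CD4 cells and 0.26 in WT CD8 cells. Il27ra had 0.20, 0.13, -0.09 and 0.06 with the GTPase score.

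The other genes of the interferon pathways were taken from lists of ligands, receptors, signalling genes, feedback genes and further interferon-stimulated genes. Of 9 ligand genes 2 were measured: Ifng, encoding interferon gamma, was detected in 25, 25, 11 and 6 cells in plate order, and Ebi3, a subunit of interleukin-27, in 0, 2, 10 and 9. Ifnb1, encoding interferon beta, was detected in 0 cells of every plate, which allows shares of cells with detection of up to 3.75% to 4.17% (3 cells per plate). Ifng was lower in CD4 than in CD8 cells, at -1.80 in WT and -2.05 under the KO label, while the GTPases were higher there. Of 7 measured receptor genes 1 was at least 1 higher in WT CD4 than WT CD8 cells (Ifngr1, 1.53) and 1 lower (Il27ra, -1.22). Of all measured genes 1.65% were that much higher and 27% that much lower. No receptor gene passed in the KO-labelled comparison, against 2.85% of measured genes higher and 6.54% lower. Ifngr1, a chain of the interferon gamma receptor, was also higher under the KO label, by 1.93 in CD8 and 1.11 in CD4 cells. At least 1 higher there were 2.25% (CD8) and 4.56% (CD4) of measured genes. Between the CD4 wells Ifngr1 had -0.30.

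Of 13 signalling genes, 3 were at least 1 lower in CD4 cells in each lineage comparison, where 27% (WT) and 6.54% (KO-labelled) of measured genes were. Of 7 feedback genes, Socs1, a JAK inhibitor, was higher under the KO label by 1.84 in CD8 and 2.21 in CD4 cells. Socs3 was higher by 2.08 in CD8 cells. Of all measured genes 2.25% (CD8) and 4.56% (CD4) were at least 1 higher under the KO label. Of 51 measured interferon-stimulated genes outside the members, 3 were at least 1 higher and 3 lower in WT CD4 than WT CD8 cells, and 11 higher and 3 lower in the KO-labelled comparison. The shares of all measured genes were 1.65% higher and 27% lower in WT, and 2.85% higher and 6.54% lower in KO-labelled cells. Ly6a differed by 1.93 and 3.81 and Ly6c2 by -5.06 and -5.57. Between genotypes 3 were higher and 2 lower in CD8 cells (Tap1 -1.89, Psmb9 -1.86), and 6 higher and 0 lower in CD4 cells, Cxcl10 among them at 1.54. Of all measured genes 2.25% were higher and 14.3% lower in CD8, and 4.56% higher and 0.782% lower in CD4 cells.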

How the data were processed

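The deposited matrix holds FPKM values from the authors, scaled between libraries by TMM as the matrix is titled, and the submitters' processing notes name RSEM, Bowtie and mm10 without versions. Read depth is not given, so numbers of genes detected stand for it. All 380 columns matched a label, and 0 were identical. Members and lists were chosen with earlier results of these data known. Cells needed 1000 genes above FPKM 1. Differences are between means over kept cells of log2(FPKM + 1), a scale that understates changes of low genes; wells are single libraries. There is no test between plates, and intervals are Clopper-Pearson 95% intervals. The upper shares given where 0 cells were found are instead 3 cells over the number of cells. In each comparison the members named first were those at least 1 in size (at most 8 per direction), with the 6 most and 6 least detected. Among other genes, the 10 closest to each score and at most 4 per pathway list were named, apart from 1 gene that is not reported here. Gene positions and shared 25-base stretches came from GENCODE M21 (GRCm38), promoters from RefSeq. Python 3.11.15, numpy 2.4.6, pandas 2.3.3, scipy 1.17.1 and matplotlib 3.10.9 were used. Alternatives varied the pseudocount, detection threshold, gene filter, depth matching and admixed cells. The 72 cells left out held 0 type I-positive and 0 GTPase-positive cells, at a median of 259.5 genes detected that leaves little room for either call.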

Additional observations from a re-analysis of the deposited data

Results flagged for a closer look

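The members Gbp3 and Ddx58 moved in opposite directions between genotypes in the lineages, and the difference was not tested. They were picked by a rule that asked for opposite signs of a set size in cells and the same signs between wells. The signs of the wells were thus fixed by that rule, and the share of all genes that meet it was not counted. Gbp3, a guanylate-binding protein, had a KO-labelled minus WT log2 difference of -0.92 in CD8 cells and 0.96 in CD4 cells, with -0.83 and 0.37 between the wells. Ddx58, which encodes the RNA sensor RIG-I, had 0.62 in CD8 and -0.75 in CD4 cells, with 0.01 and -0.08 between the wells. In cells matched on genes detected, Gbp3 had -0.55 in CD8 and 0.63 in CD4 cells, and Ddx58 had 0.26 and -0.67. Each group is 1 plate, so every sample of a lineage here means 1 cell average and 1 well.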

How the results depend on the processing

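No value of the 8 list medians over measured genes and 4 correlations changed direction under the alternatives that were run. The type I median between WT lineages was, however, 0.02 without cells holding markers of another type. Over all 8 found genes it was then -0.00357 (0.23 with all cells), so its direction there is not stable. Of the list medians 72 of 78, and of the correlations 35 of 36, moved by less than the spread used for them. This tally says little about stability, since the spread for list medians was 0.55 to 0.75, wider than several of them. The type I median between CD4 plates counted as unmoved at 0.10 against 0.37. Of the shares 15 of 16 counted as unmoved, including 50% against 100% of 2 WT CD8 cells above 10 FPKM (interval 15.8 to 100). Some alternatives could change nothing, such as leaving out macrophage-marked cells on CD8 plates, which held none. The GTPase median between CD4 plates (1.15) was 0.000299 in cells with at least 2000 genes. The GTPase median between lineages moved to 2.01 in depth-matched WT cells, and in KO-labelled cells to 1.19 with pseudocount 10, 2.99 with pseudocount 0.1 and 0.70 without CD4 cells with Foxp3 detected. The type I median between KO-labelled lineages was 0.14 without cells holding markers of another type. The correlation of both scores in WT CD4 cells was 0.61 in cells with at least 2000 genes, and the share of GTPase-positive among type I-positive KO-labelled CD4 cells was 100% when 2 type I and 3 GTPase genes sufficed. Apart from the left-out cells themselves, the cause was not tested. The alternatives without macrophage-marked cells, without Foxp3-detected cells and without Gbp6, Ifit3 and Oas1a were chosen after seeing the data. No paired analysis was possible because each group is 1 plate and cell numbers only name wells.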
